A study of Drosophila melanogaster with 11 samples.

Results

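Maltases, Jonah proteases and trypsins are for the most part secreted enzymes of the fly gut. The genes described here are the Mal-A and Mal-B maltases, the Jonah (Jon) serine proteases and the trypsins whose names end in Try. Members were chosen by gene symbol in the platform annotation, which gave 32 probe sets of 18952 in the table, each naming 1 gene. They comprise 8 Mal-A maltases, 2 Mal-B maltases, 13 Jonah proteases and 9 trypsins. The levels of these genes on the same arrays were already known when the set was proposed, so every group difference below is a description and supports nothing beyond itself. Jon99Cii, Jon99Ciii, Jon99Fii, gammaTry and deltaTry, close relatives of members, are not analysed here. Relatives this alike can share probes, so a signal named Jon99Ci, alphaTry or betaTry may hold transcripts of a neighbouring copy.

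Heads of adult female w1118 flies were compared over 4 groups. Control flies ate plain food for 16 days (n = 3 arrays). The paraquat group had 10 days on plain food and then 6 days on 5 mM paraquat, a herbicide that generates superoxide (n = 2). Nicotine flies had 0.1 mg/ml nicotine for all 16 days (n = 3), and the joint exposure group had nicotine for 16 days with 5 mM paraquat added for the last 6 (n = 3). Each array held RNA pooled from 20 heads dissected from 1 vial. A degraded paraquat replicate was left out by the submitters before normalization and is not analysed here. Values are log2 expression levels after GCRMA, in which unbound probes pile up near the table's minimum of 2.11. The pattern of a gene across arrays can be read from them, but levels of different probe sets cannot be compared.

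Maltases split maltose and related sugars into glucose and belong to the last step of starch and sugar digestion. Jonah proteases are chymotrypsin-like enzymes, and trypsins cut proteins after lysine or arginine. In the fly most of these enzymes are made mainly by cells of the midgut, which lies in the thorax and abdomen. A head preparation is therefore not where most of their transcripts are usually found. Mal-A5, Mal-B1 and Mal-B2 were never below 9.64, 8.49 and 11.88 on these arrays, and where they are made was not tested. The labels give the tissue as head. Head genes were present on every array, with trp, a light-activated channel of photoreceptors, between 13.5 and 14.7, and the neuronal RNA-binding protein gene elav between 11.1 and 11.9.

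Over all genes the arrays were alike. Correlated in turn with every other array, joint exposure replicate 1 had the lowest mean coefficient, 0.977, and the highest was 0.991. Between 8729 and 9001 probe sets reached log2 4 on an array, and 0 pairs of arrays were identical. The titles call the replicates biological without saying whether they came from separate cultures, so a p-value here covers pool-to-pool spread alone. The small number of arrays limits the precision.

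A level of log2 4 was used as the floor of detection. Of the 32 members, 20 reached it on at least 1 array, 6 reached it on all 11, and 12 never did. The 12 undetected members stayed at or below 2.93 and comprised 7 Jonah proteases (Jon25Biii, Jon44E, Jon65Ai, Jon65Aii, Jon66Ci, Jon66Cii and Jon99Fi) and 5 trypsins (etaTry, iotaTry, kappaTry, lambdaTry and zetaTry). All 10 maltases were detected somewhere. The 6 present on every array were Mal-A1, Mal-A5, Mal-A6, Mal-B1, Mal-B2 and alphaTry. Detection varied from array to array, since 6 members reached the floor on nicotine replicate 2, 18 on joint exposure replicate 1 and 17 on joint exposure replicate 2. The other 8 arrays had between 9 and 14.

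**Figure D1:**
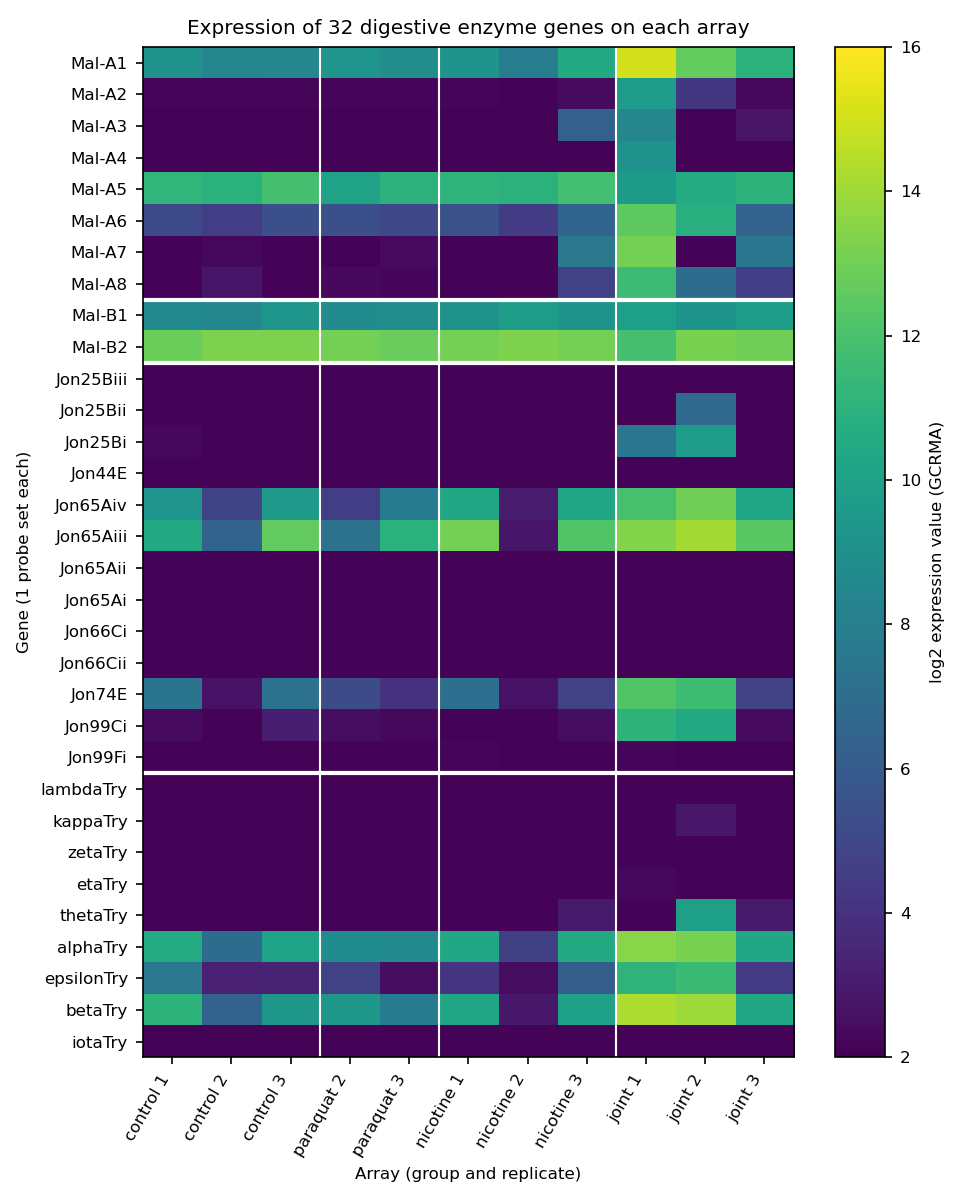
Log2 expression of the 32 member genes (rows, by family) on the 11 arrays (columns, by group and replicate), with colour from 2 to 16. The bright cells lie mostly in joint exposure replicates 1 and 2, while Mal-A5, Mal-B1 and Mal-B2 are bright in every column and 12 genes are dark throughout.

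A test needed log2 4 on at least 2 arrays, which 17 members passed, namely 7 Mal-A maltases, 2 Mal-B maltases, 5 Jonah proteases and 3 trypsins. Just inside that limit Mal-A2 had a second-highest value of 4.28, and just outside it thetaTry had one of 3.03. Jon25Bi, Mal-A2 and Jon99Ci passed through joint exposure arrays alone and so had to be higher there. Mal-A3, Mal-A7 and Mal-A8 passed through nicotine and joint exposure arrays alone. For all 6 the filter thus favoured higher values in nicotine-fed flies, and for Jon25Bi, Mal-A2 and Jon99Ci also in paraquat-fed flies. Counts over the 17 are therefore not counts over all members.

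The Mal-A genes lie side by side in 1 cluster with no other gene between them in the RefSeq gene table. Mal-A1, once named larval visceral protein H, was measured on all arrays. Its levels were 9.22, 8.39 and 8.47 in control, 9.31 and 8.89 with paraquat, 9.23, 7.91 and 10.55 with nicotine, and 15.05, 12.72 and 10.98 with the joint exposure. It was the 1 tested member whose joint exposure arrays all lay above the arrays of the other 3 groups, a separation that 0.648% of the 9104 tested probe sets had in this direction. Within the joint group the highest and lowest arrays still differed by 4.07 log2, or 16.8-fold.

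Mal-A6 had the same order at lower values. It stood at 5.08, 4.58 and 5.43 in control, 5.45 and 5.01 with paraquat, 5.46, 4.45 and 6.52 with nicotine, and 12.55, 10.79 and 6.43 with the joint exposure. Joint exposure replicates 1 and 2 were far above every other array, and replicate 3 lay just under nicotine replicate 3, so those groups overlapped.

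Mal-A8 lay below the floor in all control and paraquat arrays, between 2.13 and 2.81. With nicotine it was 2.15, 2.13 and 4.74, and with the joint exposure 11.59, 6.96 and 4.58. All 3 joint arrays and 1 nicotine array thus carried a signal, which put the joint group at least 13.1-fold above control when values under the floor were set to log2 4.

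Mal-A7 showed a different set of arrays. It read 13.05 and 7.52 on joint exposure replicates 1 and 3 and 7.52 on nicotine replicate 3, and at most 2.38 on the other 8 arrays, joint exposure replicate 2 at 2.12 among them. These 3 arrays also had the widest gap between the 3' and 5' probe sets for GAPDH, a control for transcript integrity, at 10.54 to 10.96 log2 against 3.68 to 8.39 on the other 8. The same gap for actin and eIF-4a overlapped between them. With the mean 3' to 5' gap of the controls as a covariate, the fitted Mal-A7 difference for the joint exposure against control was 2.68 log2 in place of 5.38. For nicotine it was 1.89 in place of 3.53. That mean gap was 10.32 and 10.34 on joint exposure replicates 1 and 3, and lowest, at 5.87, on control replicate 3. A part of transcript integrity in the Mal-A7 levels was not tested.

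Mal-A3 (formerly larval visceral protein L) was seen on 2 of those arrays, at 8.47 on joint exposure replicate 1 and 6.27 on nicotine replicate 3, with at most 2.75 elsewhere. Mal-A2 (formerly larval visceral protein D) reached 9.74 on joint exposure replicate 1 and 4.28 on replicate 2, and stayed between 2.14 and 2.43 on the other 9 arrays. Mal-A4 reached 9.21 on joint exposure replicate 1 and no more than 2.16 elsewhere. Joint exposure replicate 1 was thus the array on which all 8 cluster genes were detected.

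Mal-A5, in the middle of the cluster, ran the other way. Its control arrays were at 11.19, 10.92 and 11.86, paraquat at 10.04 and 11.01, nicotine at 11.11, 10.98 and 11.81, and joint exposure at 9.64, 10.62 and 11.07. Joint exposure replicate 1, where its neighbours peaked, gave its lowest value.

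**Figure D2:**
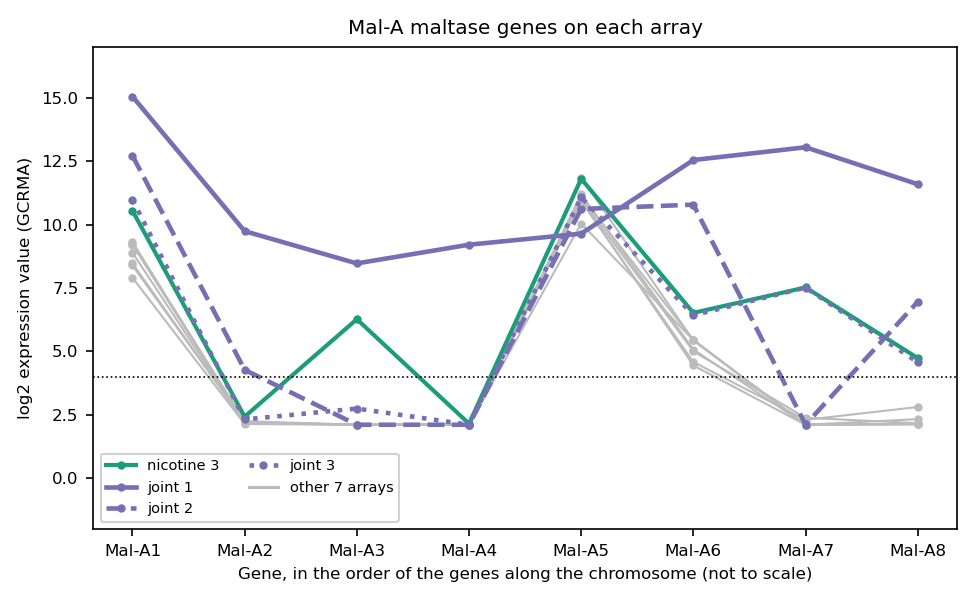
Log2 expression (vertical axis) of the 8 Mal-A genes in their order along the chromosome (horizontal axis, not to scale), 1 line per array, with 4 arrays coloured and the other 7 in grey. Joint exposure replicate 1 lies above the others at every gene except Mal-A5, where it is lowest, and joint exposure replicate 2 returns to the floor at Mal-A7.

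The Mal-B genes, a neighbouring pair elsewhere in the genome, varied least between arrays of a group among the tested members. Mal-B1 had a mean of 8.82 ± 0.45 (SD, n = 3) in control, 8.80 ± 0.056 (n = 2) with paraquat, 9.41 ± 0.39 (n = 3) with nicotine and 9.63 ± 0.36 (n = 3) with the joint exposure. Mal-B2 had means of 13.12 ± 0.23, 12.95 ± 0.18, 13.15 ± 0.11 and 12.69 ± 0.71 in the same order. Over all 11 arrays each of the pair moved by about 1.40 log2, and Mal-B2, like Mal-A5, was lowest on joint exposure replicate 1, at 11.88.

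Among the Jonah proteases, Jon65Aiii and Jon65Aiv are neighbours and varied in nearly every group. Jon65Aiii was at 10.52, 6.44 and 12.63 in control, 7.22 and 10.94 with paraquat, 13.09, 2.87 and 12.23 with nicotine, and 13.41, 14.10 and 12.39 with the joint exposure. Jon65Aiv gave 9.30, 4.85 and 9.50 in control, 4.62 and 7.76 with paraquat, 10.39, 3.07 and 10.27 with nicotine, and 11.93, 12.97 and 10.25 with the joint exposure. Both genes were lowest on nicotine replicate 2 while the other nicotine arrays lay among the high ones, so the nicotine group alone spanned 10.2 log2 for Jon65Aiii. Their relatives Jon65Ai and Jon65Aii, next to them in the genome, were at the table's minimum on all arrays.

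Jon74E had 7.41, 2.66 and 7.22 in control, 5.24 and 3.97 with paraquat, 7.11, 2.66 and 4.69 with nicotine, and 12.20, 11.64 and 4.73 with the joint exposure. Jon99Ci lay between 2.11 and 3.20 on 9 arrays and at 11.08 and 10.58 on joint exposure replicates 1 and 2. For both genes joint exposure replicate 3 fell inside the range of the other groups. Jon25Bi was likewise at 2.31 or less except for 7.49 and 9.71 on those arrays, and its neighbour Jon25Bii was detected on joint exposure replicate 2 alone, at 6.79. Their cluster partner Jon25Biii was not detected on any array.

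The trypsin genes alphaTry, betaTry and epsilonTry sit next to one another, and all were highest on joint exposure replicates 1 and 2. In alphaTry the values were 10.64, 6.96 and 10.13 in control, 8.83 and 8.68 with paraquat, 10.38, 4.63 and 10.57 with nicotine, and 13.52, 13.17 and 10.35 with the joint exposure. In betaTry they were 11.06, 6.47 and 9.43, then 9.42 and 7.76, then 10.22, 2.90 and 9.99, and finally 14.29, 13.94 and 10.41. For both, nicotine replicate 2 was the lowest array and control replicate 2 the next.

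epsilonTry reached 11.12 and 11.54 on joint exposure replicates 1 and 2 and between 2.48 and 7.57 on the other 9 arrays, with control replicate 1 the highest of these. thetaTry was at 9.93 on joint exposure replicate 2 and at 3.03 or less elsewhere, including 2.11 on joint exposure replicate 1. The pair of joint arrays with most digestive enzyme signal therefore differed in which members they carried, since Mal-A3, Mal-A4 and Mal-A7 were detected on replicate 1 and not on replicate 2, and thetaTry and Jon25Bii on replicate 2 and not on replicate 1.

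**Figure D3:**
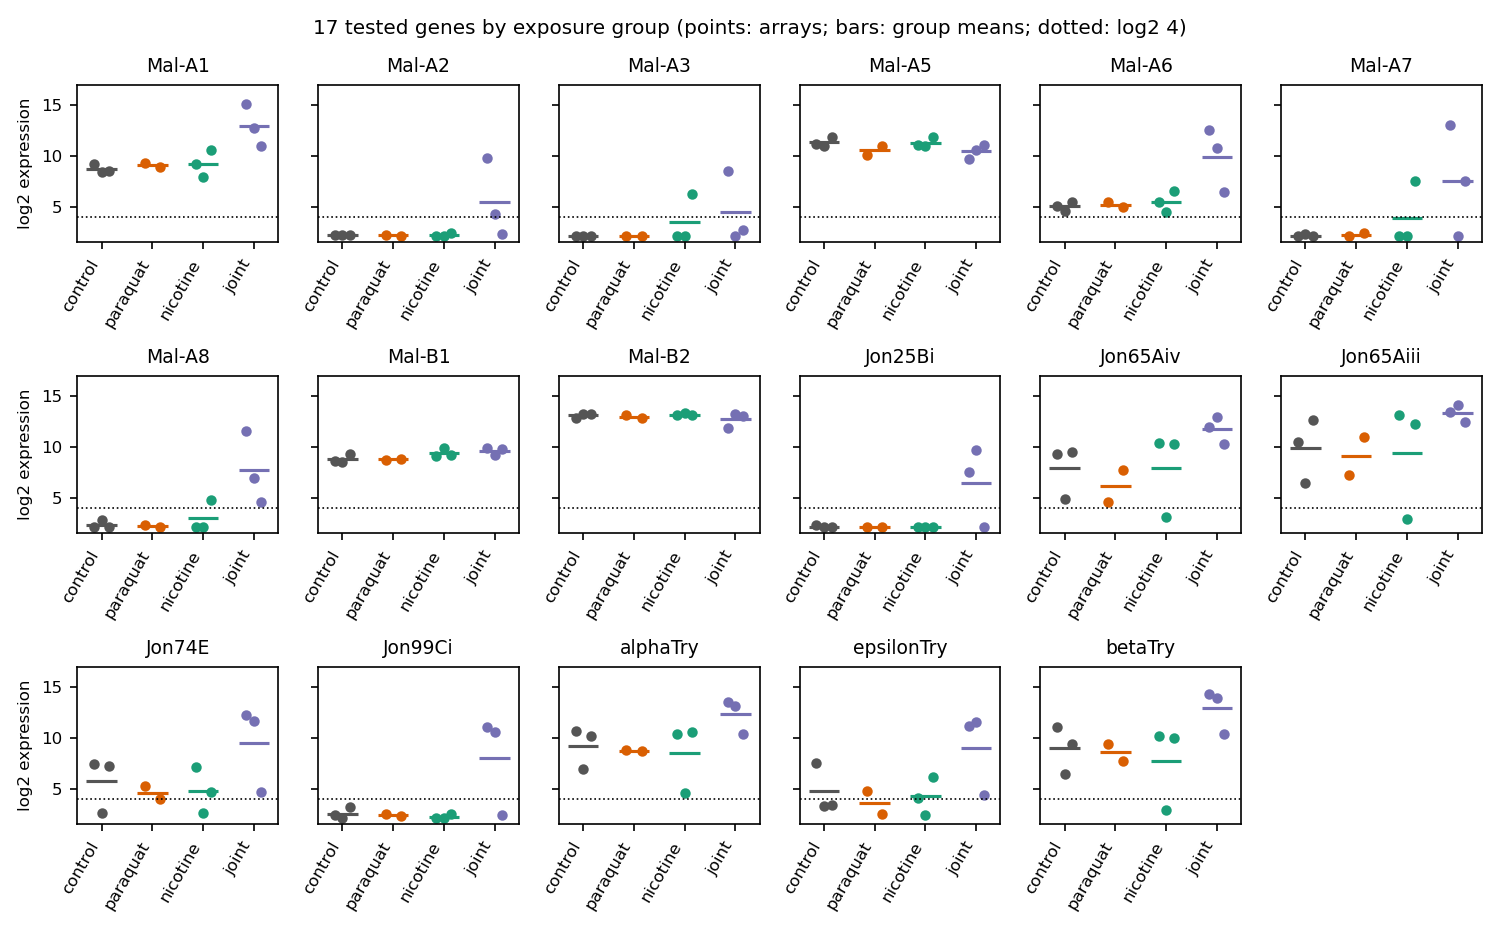
Log2 expression (vertical axes) of the 17 tested members in the 4 groups (horizontal axes), with points for arrays, bars for group means and a dotted line at log2 4. The joint exposure points lie apart from one another in most panels, the points of Mal-A5, Mal-B1 and Mal-B2 lie close together, and those of Jon65Aiii are widest in the nicotine group.

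Ranking the arrays within each gene put the same few at the ends. Of the 17 tested members, 11 were highest on joint exposure replicate 1 and 4 on replicate 2, and for 12 these were the 2 highest arrays. The exceptions were Mal-A5, highest on control replicate 3, and Mal-B2, highest on nicotine replicate 2. Jon25Bi, Mal-A2 and Jon99Ci, among the 12, were tested through those 2 joint arrays alone, so the filter fixed their order. Joint exposure replicate 1 also had the highest median over all probe sets, 3.38 against 2.94 to 3.06. The share of all probe sets highest on these arrays was not counted. At the low end, 6 members (Mal-A1, Mal-A6, alphaTry, betaTry, Jon65Aiii and Jon65Aiv) were lowest on nicotine replicate 2 with every other array above the floor. The median over the 17 members was 11.88 and 10.79 on joint exposure replicates 1 and 2, 7.52 on replicate 3, 2.87 on nicotine replicate 2, and between 4.58 and 7.57 on the remaining 7 arrays.

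The spread between arrays of 1 group was large for these genes. Their residual SD in the fit had a median of 2.27 log2, against 0.335 over all 9104 tested probe sets. It ran from 0.374 for Mal-B1 to 3.63 for Jon65Aiii, and 13 of the 17 lay above the 99th percentile of all tested probe sets (1.65). Mal-A1 (1.33), Mal-A5 (0.585), Mal-B2 (0.409) and Mal-B1 were the 4 below it. This spread describes the genes as they were picked and was not tested. In pooled heads, fewer cells of a type and less RNA per cell cannot be told apart.

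**Figure D4:**
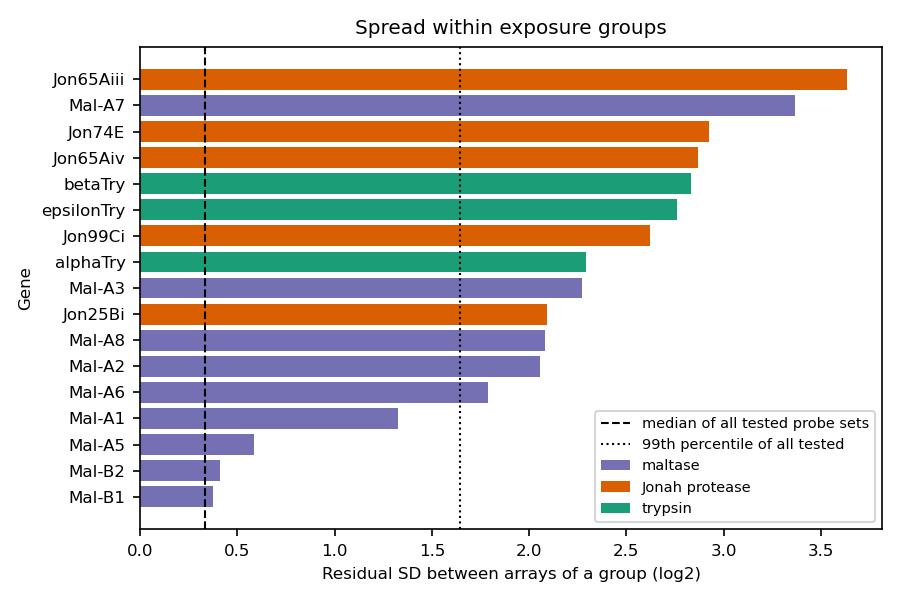
Residual SD between arrays of a group, in log2 (horizontal axis), for the 17 tested members (bars, coloured by family), with lines at the median (0.335) and the 99th percentile (1.65) of all 9104 tested probe sets. The bars of 13 members pass the second line.

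Paraquat, averaged over flies without and with nicotine, gave fitted differences above 0 for 15 of 17 members (49% of all tested probe sets), with a median of 1.77 log2 (all tested probe sets -0.01), and 0.63 over all 32 members. The largest were 2.80 ± 1.38 (SE) for Jon99Ci, 2.39 ± 1.49 for betaTry and 2.32 ± 0.95 for Mal-A6. Jon99Ci was at 4.20 without joint exposure replicate 3, and betaTry at 1.19 without nicotine replicate 2. Jon25Bi, Mal-A2 and Jon99Ci, tested through joint exposure arrays alone, are among the 15, and the filter favoured this direction for them. In flies without nicotine, the control and paraquat group means were 2.57 and 2.40 for Jon99Ci, with all these arrays below the floor. They were 8.99 and 8.59 for betaTry, and 5.03 and 5.23 for Mal-A6. By limma 0 of 17 were called at an adjusted p under 0.05, where 3.69% of all tested probe sets were, and the lowest adjusted p was 0.160, for Mal-A1. An unadjusted p under 0.05 was found for Mal-A1 and Mal-A6 (higher) and Mal-A5 (lower, -0.82 ± 0.32), 3 of 17 against 17.6% of all.

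Nicotine, averaged over flies without and with paraquat, had a members' median of 1.99 log2 (all tested -0.04), or 0.99 over all 32 members, again with 15 of 17 above 0 (42.7% of all). Mal-A7 stood at 3.53 ± 1.77, Mal-A8 at 3.05 ± 1.10 and Jon65Aiv at 2.78 ± 1.51. Mal-A7 was at 2.15 without joint exposure replicate 1. The 15 members above 0 include the 6 tested only through arrays of nicotine-fed flies, Mal-A7 and Mal-A8 among them. The filter favoured this direction for them. In limma 0 members were called, as were 0% of all probe sets, and the lowest adjusted p was 0.833. At an unadjusted p under 0.05 were Mal-A1, Mal-A6, Mal-A8 and Mal-B1, 4 of 17 against 3.69% of all. Nicotine and control arrays overlapped for all 17 members, a separation that 3.45% (higher) and 2.38% (lower) of all probe sets had.

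The joint exposure against plain food used 3 arrays on each side. The members' median was 3.83 log2 (all tested -0.01), with 15 of 17 above 0 (48.7% of all), and it was 3.44 with every value under the floor set to log2 4 and 1.95 over all 32 members. Jon99Ci was at 5.45 ± 1.84, Mal-A7 at 5.38 ± 2.37 and Mal-A8 at 5.35 ± 1.46, and since their control arrays lay below the floor these sizes are not measured folds. Mal-A7 was at 2.64 without joint exposure replicate 1 and 8.11 without replicate 2, Mal-A8 at 3.41 without replicate 1, and Jon99Ci at 8.26 without replicate 3. limma called 0 of 17 (0.33% of all tested), with the lowest adjusted p 0.0925, for Mal-A1 at 4.22 ± 0.94. An unadjusted p under 0.05 was found for 7 of 17, namely Mal-A1, Mal-A6, Mal-A7, Mal-A8, Mal-B1, Jon25Bi and Jon99Ci, against 16.5% of all. Of these, Mal-A7, Mal-A8, Jon25Bi and Jon99Ci were tested only through arrays of nicotine-fed flies, as were Mal-A2 and Mal-A3. For these 6 the filter favoured higher values in the joint group than in control. Joint exposure and control arrays did not overlap for 5 members (Mal-A1, Mal-A2, Mal-A6, Mal-A8 and Jon65Aiv), all higher, where 9.18% of all probe sets were separated upwards. For Mal-A2 joint exposure replicate 3 (2.32) and every control array (at most 2.25) lay below the floor, where levels have no order.

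Set against the single exposures, joint arrays lay wholly above the paraquat arrays for 9 members, where 5.01% of all probe sets did with only 2 paraquat arrays to clear. Mal-A2 was among the 9, with joint exposure replicate 3 (2.32) and the paraquat arrays (at most 2.21) all below the floor. Joint arrays lay above the nicotine arrays for Mal-A1 and betaTry, where 8.22% of all did. Paraquat and control arrays were separated for Mal-A2 alone, downwards within values below the floor, where 12% of all probe sets were. No member was separated upwards there, against 19.8% of all.

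The interaction, which asks whether paraquat acted differently in nicotine-fed flies, had a members' median of 4.31 log2 (all tested -0.05), with 15 of 17 above 0 (44.2% of all), and of 1.26 over all 32 members. Jon99Ci was at 5.93 ± 2.77, epsilonTry at 5.87 ± 2.91 and Jon74E at 5.86 ± 3.08. With array weights they were at 3.89, 3.90 and 0.51. The filter favoured a positive interaction for Jon25Bi, Mal-A2 and Jon99Ci, which are among the 15 and were tested through joint exposure arrays alone. The limma test called 0 members and 0% of all probe sets, every member had an adjusted p that rounds to 1, and the 1 member with an unadjusted p under 0.05 was Mal-A1 (1.23% of all). The 4 contrasts share arrays, so their like signs are not separate results.

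These counts changed when single joint exposure arrays were left out. Without joint exposure replicate 3, limma called Jon25Bi, Jon99Ci and Mal-A6 for paraquat (2.77% of all tested probe sets) and for nicotine (0.243% of all). In the same fit it called those 3 and Mal-A1 for the joint exposure (0.728% of all), and Jon25Bi and Jon99Ci for the interaction (0.232% of all). Jon25Bi and Jon99Ci were tested through joint exposure arrays alone, and the array left out was the joint array on which both lay below the floor. The filter and this choice of array thus favoured their calls in all 4 contrasts. Without joint exposure replicate 2 it called Mal-A7 alone of 14 tested members for the joint exposure, where 4.23% of all were called. With replicates 1 and 2 both left out, 13 members were tested, and replicate 3 was the only joint exposure array. Those arrays were left out because most members were highest there, so lower medians follow from the choice. The median differences were then 0.57 log2 for paraquat, 0.78 for nicotine, 1.40 for the joint exposure and 1.34 for the interaction.

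Other digestive genes were set beside the members. A list of 71 further gut genes (amylases, lipases, peptidases, lysozymes and peritrophic proteins) had 62 matched probe sets, 40 of them never at the floor and 17 tested. Of the 17, 11 were highest on joint exposure replicate 1 or 2. Among them CG6283, CG17633 and Peritrophin-15b were tested through joint exposure arrays alone and so had to be higher there. By limma 0 were called in any contrast, where 3.69% of all tested probe sets were for paraquat, 0.33% for the joint exposure and 0% for the others. At an unadjusted p under 0.05 there were 1 for paraquat (17.6% of all tested probe sets) and 1 for nicotine (3.69% of all). There were 7 for the joint exposure (16.5% of all), with CG3097 lower (-0.89 log2) and the rest higher, and 0 for the interaction (1.23% of all). The list's median differences were 1.57, 1.65, 3.46 and 3.99 log2 in that order.

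Bace, an aspartic protease gene, followed the members, at 14.57, 13.84 and 11.29 with the joint exposure, 11.63 on nicotine replicate 3, 3.47 on nicotine replicate 2 and 6.15 to 9.07 on the rest. CG6295, a lipase-like gene, was at 12.03 and 12.56 on joint exposure replicates 1 and 2 and at 7.51 or less elsewhere. CG17192 (10.66 and 12.23) and CG6283 (9.29 and 6.90), of the same lipase group, were high on those arrays too and at 4.78 or less on the others. The carboxypeptidase genes CG12374 (9.97 and 10.85) and CG17633 (6.14 and 10.22) had the same pair of high arrays. tobi, an insulin-responsive glucosidase gene, was detected on joint exposure replicate 1 alone, at 9.98.

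The serine protease gene yip7 was at 12.34 on joint exposure replicate 2, 11.07 on nicotine replicate 1 and 2.14 on nicotine replicate 2. On joint exposure replicate 1 it was at 9.12, below 5 other arrays, whereas Jon65Aiii had its second-highest value there. CG18180 was at 12.94 and 11.13 on joint exposure replicates 2 and 1 and at 2.11 on control replicate 2. By contrast CG8329, CG9676 and CG3097 were present on all arrays and highest on control replicate 3, with 14.16, 13.51 and 10.17. Like Mal-A5 and Mal-B2, these 3 were lowest on joint exposure replicate 1, at 11.30, 11.60 and 7.90.

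The tested gene most like the members was mex1, a gene named for its expression in the midgut. Likeness was the root mean square difference between a gene's centred profile and the members' mean centred profile over the 11 arrays, with 7783 other probe sets compared. It was 0.708 log2 for mex1, with a median of 1.99 over all tested probe sets, and members themselves ranged from 0.545 (Mal-A1) to 2.55 (Mal-A7). mex1 read 8.23, 7.21 and 3.46 with the joint exposure, 3.78 on nicotine replicate 3 and at most 2.27 on the other 7 arrays.

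Next came CG12780, a gene like those of glucan-binding proteins, at 0.718, CG5107 at 0.735, CG44251 at 0.808 and CG1246 at 0.836. CG3987 (0.855), CG4377 (0.861), CG10086 (0.881), CG5011 (0.895) and CG42397 (0.911) completed the 10 nearest. CG5107 was present on every array, at 13.59, 12.32 and 10.58 with the joint exposure and between 7.49 and 10.18 on the others. Each of the 10 was highest on joint exposure replicate 1, where the members' profile also peaked, so this follows from how they were chosen. mex1, CG44251, CG1246, CG5011 and CG42397 were tested only through joint exposure replicates 1 and 2.

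Markers of other tissues were set beside the members. The midgut identity list had 5 of 8 genes matched. Their summed level was 4.88 to 5.13 log2 in control, 5.02 and 5.03 with paraquat, 5.10 to 5.42 with nicotine and 5.33 to 8.63 with the joint exposure. No gene of the list reached the floor outside joint exposure replicates 1 and 2, so the other sums only add values below it. Of the 5 matched genes, nub (5.57) and cad (5.00), transcription factor genes, passed the floor on joint exposure replicate 1 alone. Vha100-4 (5.58) passed it on replicate 2 alone, and GATAe, the gene of a midgut GATA factor, on no array.

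Of the 4 fat body genes detected, Yp2, Yp3 and Lsp2 were lowest on joint exposure replicate 1, while Yp1, at 15.88 there, lay within its range on the other arrays. Of the 4 neuronal genes, nSyb was lowest on that array, trp on nicotine replicate 3, elav on paraquat replicate 3 and brp on joint exposure replicate 2. On joint exposure replicate 1 the yolk protein gene Yp3 was at 13.64, against 14.46 to 15.83 on the other arrays. The synaptic vesicle gene nSyb was at 10.22 on it, against 11.11 to 12.71. The summed fat body level was 17.53 to 17.71 log2 in control, 17.07 and 17.11 with paraquat, 17.52 to 17.64 with nicotine and 16.63 to 17.57 with the joint exposure, with Fbp1 undetected. The photoreceptor and neuron sums (4 of 7 matched) were 14.80 to 15.20, 14.75 and 14.83, 14.31 to 14.88, and 14.59 to 14.70 in the same order. In limma 0 of the 16 tested tissue markers were called in any contrast. Of all tested probe sets 3.69% were called for paraquat, 0.33% for the joint exposure and 0% for nicotine and for the interaction. At such shares a list this short would often hold no call. The part of tissue makeup in the members' levels was not tested.

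**Figure D5:**
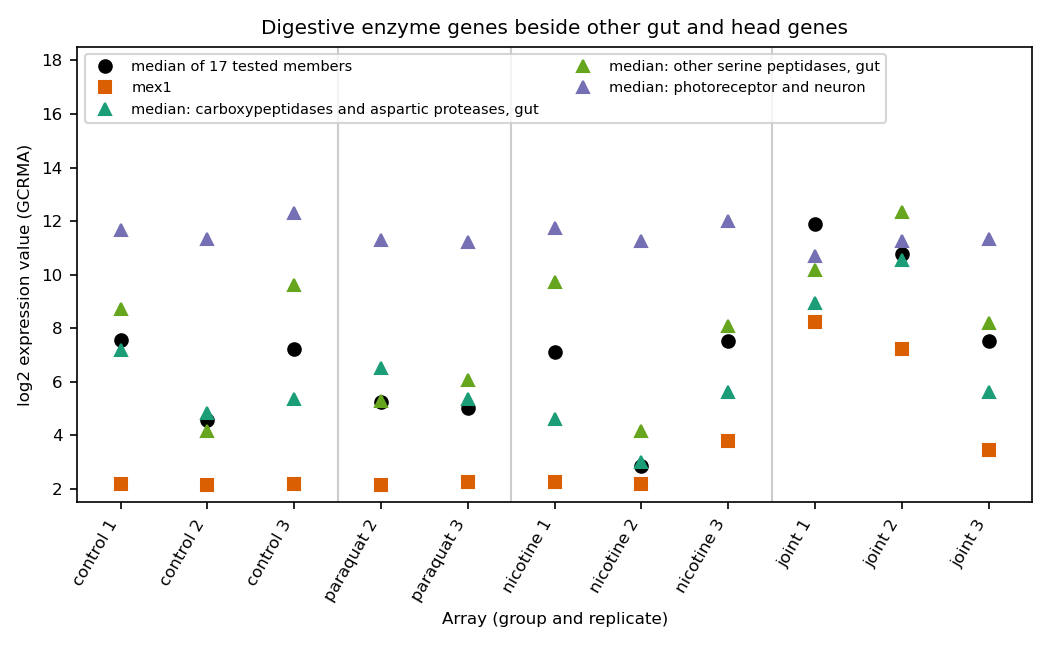
Log2 expression (vertical axis) on each of the 11 arrays (horizontal axis), showing the median of the 17 tested members (black), mex1 (orange), medians of the tested genes of 2 lists of other gut enzymes (greens) and of the photoreceptor and neuron markers (purple). The members' median, mex1 and the medians of both gut lists are highest on joint exposure replicates 1 and 2, and the neuronal median stays between 10.7 and 12.3. The summed level of the other serine peptidases, not drawn, is lowest on joint exposure replicate 1 (13.16) and highest on control replicate 3 (14.97).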

How the data were processed

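The authors deposited log2 expression values per probe set for 11 Affymetrix arrays. Per the submitters' processing notes these were made with GCRMA, a method that corrects background by probe sequence before quantile normalization and probe summary. Its version and settings, and any genome build, are not given here. Per the labels' protocols, total RNA was amplified from the 3' end and labelled with biotin.

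Groups came from the sample titles. After 183 control probe sets were set aside, 9104 of 18952 probe sets reached log2 4 on at least 2 arrays. They were fitted with limma 3.58.1 in R 4.3.3 (1 mean per group, all 11 arrays, 7 residual and 2.48 prior degrees of freedom, no block). Two-sided p-values for 4 contrasts were Benjamini-Hochberg adjusted over the 9104. The fit was checked on simulated data. Levels below log2 4 have no order, and GCRMA's floor sets the size of differences that start there.

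All members are named, with the 3 largest differences per contrast, up to 4 genes per gut list by mean level, and the 10 most similar genes. Names outside this rule were chosen after their values were seen. Symbols come from the platform annotation and the RefSeq gene table of Drosophila Release 6. Members and lists were chosen with earlier results of these data known. Alternatives changed the low-value filter, variance prior, array centring, array weights, replicate block and an RNA quality covariate, or left arrays out. Sequences and coordinates are not given here.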

Additional observations from a re-analysis of the deposited data

Results flagged for a closer look

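Signals were present for 3 members that were not among the tested probe sets because they reached log2 4 on 1 array each, above all control arrays. thetaTry read 9.93 on joint exposure replicate 2, Mal-A4 read 9.21 on joint exposure replicate 1, and Jon25Bii read 6.79 on joint exposure replicate 2. All control arrays of these genes were at 2.11, and the difference was not tested.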

How the results depend on the processing

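Leaving out each array in turn gave 0 to 3 called members for paraquat, 0 to 3 for nicotine, 0 to 4 for the joint exposure and 0 to 2 for the interaction, with the genes given above. Array weights called 1 member (Mal-A1) for paraquat, where 17.9% of all tested probe sets were called, and 1 (Mal-A1) for the joint exposure (3.05% of all), and moved the interaction median to 1.52 log2. Without a low-value filter, which adds undetected members, the interaction median was 1.26. With joint exposure replicates 1 and 2 both left out, an alternative chosen after seeing the data, the medians were 1.40 for the joint exposure and 1.34 for the interaction. Joint exposure replicate 3 alone then stood for its group. With the replicate number as a block, 1 member (Mal-A5) was called for paraquat (3.94% of all) and 0 in the other 3 contrasts (0.198% of all for the joint exposure, and 0 for the others). Same-numbered arrays of different groups had residual correlations from -0.07 to 0.50, with 6 of 15 pairs at or under 0.1, so the numbers were not treated as pairs, although 9 of 11 arrays correlated best with their own number, a hint from the data and not from the design. The cause of these changes was not tested. Over all 20 alternatives the paraquat median lay between 0.57 and 2.36 and the nicotine median between 0.78 and 2.66. Leaving out single arrays gave joint exposure medians from 2.63 to 5.13 and interaction medians from 2.94 to 5.35. The 3 largest differences of each contrast kept their sign under the alternatives in which the gene was tested. For members near the floor, signal over background limits what can be compared.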

Other observations

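Some genes outside the members were detected on 1 or 2 arrays, chosen here after their values were seen. The lipase gene mag was at 8.74 on control replicate 2 and at 2.52 or less elsewhere. The eggshell gene Vm26Aa was at 8.60 on nicotine replicate 1 and at 2.17 or less elsewhere, and osk, an oocyte gene, was at 7.98 on that array and 7.65 on joint exposure replicate 1 against 3.54 or less on the others. Of the other ovary markers, vas was at 5.81 on joint exposure replicate 1 and below the floor elsewhere, nos and Cp36 were never detected, and bam was at 4.51 on nicotine replicate 1 and between 4.82 and 4.95 on the rest. Peritrophin-15a, of the gut's lining, was at 8.70 on joint exposure replicate 2 and at 2.11 on the rest.

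LysP, a lysozyme gene, was on or off by array in every group but the joint exposure. It was at 5.84, 2.11 and 7.55 in control, 2.32 and 8.45 with paraquat, 2.28, 8.84 and 2.75 with nicotine, and 9.27, 9.63 and 9.71 with the joint exposure. Nicotine replicate 2, the lowest array for betaTry and Jon65Aiii, had the highest LysP value of its group. Mur29B, a mucin-related gene, ranged from 4.64 on paraquat replicate 2 to 9.90 on control replicate 3, and PGRP-SC2, the gene of a peptidoglycan amidase, was at 7.03 and 7.46 on joint exposure replicates 1 and 2 against 4.32 to 5.20 elsewhere.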
